A study of Mus musculus with 27 samples.

Results

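Fmr1, Fmr1nb and Aff2 are the mouse genes of the fragile X region of the X chromosome, and they were taken by name from both deposited tables of X-linked allelic ratios. The 3 genes are present in all 23 libraries, out of 270 genes in the table of the Spen lines and 254 in the table of the CIZ1 lines. Chromatin-associated RNA, the RNA that stays with chromatin when nuclei are extracted and is rich in nascent transcripts, had been sequenced from female 129S X Cast mouse embryonic stem (ES) cells. In all of them the promoter of Xist on the 129S allele was a doxycycline-driven TetOn promoter, and Xist carried a Bgl stem-loop array at its end. Doxycycline was given at 1 to 1.5 µg per mL. Titles of the WT, CIZ1 KO and SpenKO samples carry the label BglHalo, which the SPOCmut titles lack. The groups were SpenKO cells (called SpenRRM in the series' own text) at 0, 3 and 24 h of doxycycline, SPOCmut cells at 0 and 24 h, CIZ1 KO cells at 0 and 24 h and as neural precursor cells (NPC) of day 30, and the WT line at 0, 3 and 24 h and as NPC of day 30. Of these 12 groups 7 held 2 libraries, the 2 SPOCmut groups held 3, and SpenKO at 3 h and both NPC groups held 1.

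SPOCmut libraries came from 3 separate clones (C10, C2 and G1). The WT libraries all carry the label 10H, whose meaning is not stated, and for the other lines no clone is named. Outside SPOCmut nothing says that libraries came from separate cultures, so the spread that the p-values rest on may be technical, and a line and its genotype cannot be told apart. Where libraries of different groups are said not to overlap, the share of all genes for which this holds was not counted. With so few libraries a group such separation can arise by chance. Whether the NPC received doxycycline is not stated. ES cells grew on mouse fibroblast feeders, whose RNA may be present. Each value is an allelic ratio from 0 to 1, read as the share of allele-assigned reads that came from the 129S X. Xist lay between 0.933 and 0.999 in every library, which gave this reading. A ratio of 0.5 means equal RNA from both X chromosomes, and a ratio that fell means relatively less RNA from the X that carries inducible Xist. The files hold no expression levels, so less 129S RNA and more Cast RNA cannot be told apart, the cell type could not be checked by its markers, and the depth behind each ratio is unknown. The knockouts themselves could not be checked, since neither Spen nor Ciz1 is X-linked or listed.

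Xist RNA spreads in cis over the X it is made from and silences its genes. SPEN binds Xist and recruits corepressors through its SPOC domain, and CIZ1 is a nuclear matrix protein that anchors Xist. Fmr1 encodes FMRP, an RNA-binding protein that represses translation of many mRNAs in neurons. In humans, a repeat expansion in FMR1 that is followed by promoter methylation switches the gene off and causes fragile X syndrome. AFF2, a nuclear protein of the AF4/FMR2 family, is lost in the same way in human FRAXE intellectual disability. Fmr1nb lies between them and encodes a membrane protein known in humans as a testis antigen that some tumours express.

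All 3 genes lie on the plus strand of chromosome X (build mm10). Fmr1 spans 68678540 to 68717961 (39.4 kb), Fmr1nb 68761838 to 68804560 (42.7 kb) and Aff2 69360330 to 69868037, a much longer gene of 508 kb. The deposited lengths equal these full spans, introns included. Fmr1 ends 43.9 kb before Fmr1nb starts, and Fmr1nb ends 556 kb before Aff2. Xist lies 34.8 Mb from the start of Fmr1. The antisense gene Gm14705 overlaps 940 bases (0.185%) of Aff2, and the pseudogene Gm8172 overlaps 750 bases of it. The pseudogene Gm14699 overlaps 228 bases of Fmr1nb. A snoRNA gene overlaps 128 bases of Fmr1, and Gm27838, a small RNA gene on the same strand, overlaps 73 bases of it. The strand setting of the counting is not stated, so reads in these stretches could belong to either gene.

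The starts of the 3 genes differ in their letters, and the stretches before them are shown so that the promoters of 3 neighbours with unequal shifts can be compared. The sequences are from RefSeq (GRCm38.p6, the mm10 assembly), on the plus strand, and end before the first annotated transcript start (X:68678291-68678535 for Fmr1, X:68761589-68761838 for Fmr1nb and X:69360081-69360189 for Aff2). For Fmr1nb the last printed position, 68761838, equals the deposited gene start, which differs from that annotation. Capitals mark the NRF1 palindrome (GCGCA followed by its reverse complement), an E-box (CACGTG), the GC box (GGGCGG) and a palindrome of TCTCG followed by its reverse complement, all searched on both strands. No motif overlapped another, and the 4 motifs were chosen after the sequences were seen.
Fmr1: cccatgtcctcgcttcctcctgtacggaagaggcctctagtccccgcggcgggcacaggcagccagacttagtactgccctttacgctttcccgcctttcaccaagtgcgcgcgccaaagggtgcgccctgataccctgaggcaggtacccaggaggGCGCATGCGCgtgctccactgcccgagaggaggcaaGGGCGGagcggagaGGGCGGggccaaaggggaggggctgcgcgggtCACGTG
Fmr1nb: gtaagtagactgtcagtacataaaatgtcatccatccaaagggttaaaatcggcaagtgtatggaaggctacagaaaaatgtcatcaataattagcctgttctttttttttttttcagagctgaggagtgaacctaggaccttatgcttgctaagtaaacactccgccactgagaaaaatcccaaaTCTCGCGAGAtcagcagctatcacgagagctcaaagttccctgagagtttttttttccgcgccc
Aff2: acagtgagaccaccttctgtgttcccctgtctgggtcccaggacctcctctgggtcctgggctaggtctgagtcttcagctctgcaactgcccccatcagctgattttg

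Counted over the 250 bases before each start, the Fmr1 promoter held 21 CpG pairs and 67.2% G or C, with more CpG than 83.6% of 32841 mouse promoters. Fmr1nb held 7 CpG at 41.6% G or C, and Aff2 7 CpG at 61.2%. The NRF1 palindrome stands in the Fmr1 stretch and in 0.783% of all promoters, and its E-box in 6.02% of them. GC boxes, found in 32.7% of promoters, occur at 2 places before Fmr1 and at 3 before Aff2, where they lie nearer to the start than the printed bases. Fmr1nb holds the TCTCG palindrome, which 0.390% of promoters hold. The first 109 bases printed for Fmr1 also lie inside Gm10474 (Fmr1os in RefSeq), a noncoding gene on the minus strand that starts 141 bases from Fmr1. The end of the stretch printed for Fmr1, with its E-box, lies inside Gm27838. All 109 bases printed for Aff2 lie inside the antisense gene Gm14705.

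Without doxycycline all 3 genes were close to equal RNA from both X chromosomes in every line. Fmr1 had ratios of 0.491 and 0.510 in SpenKO, 0.502, 0.508 and 0.514 in SPOCmut, 0.459 and 0.472 in CIZ1 KO, and 0.506 and 0.465 in WT. Fmr1nb lay slightly above 0.5 everywhere, at 0.544 and 0.549 in SpenKO, 0.550, 0.561 and 0.560 in SPOCmut, 0.552 and 0.542 in CIZ1 KO, and 0.523 and 0.539 in WT. Aff2 was the most variable, at 0.509 and 0.476 in SpenKO, 0.561, 0.577 and 0.544 in SPOCmut, 0.523 in both CIZ1 KO libraries, and 0.441 and 0.508 in WT. The largest difference from WT was that of Aff2 in SPOCmut, 0.0859 ± 0.0243 (SE), but it did not pass the test (limma, adjusted p = 0.193). None of the 3 genes passed the test against WT at 0 h in any line, and limma called no other gene of the tables (0% called in each of the 3 comparisons, with 22, 34 and 16 genes at an unadjusted p under 0.05 in SpenKO, SPOCmut and CIZ1 KO).

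**Figure D1:**
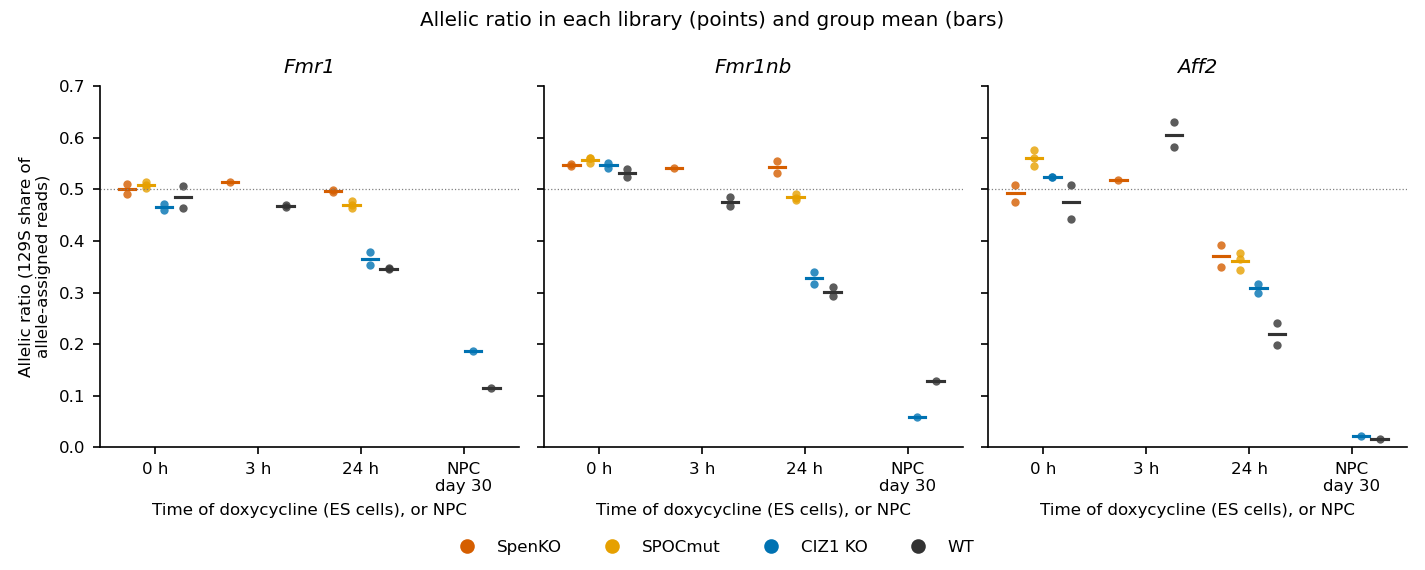
Allelic ratio (the 129S share of allele-assigned reads, vertical axis) of each gene in each library, by time of doxycycline and in NPC. Points are libraries, bars are group means, and the dotted line marks 0.5. At 24 h the WT and CIZ1 KO points of Fmr1 and Fmr1nb lie well below those of SpenKO and SPOCmut, whereas the Aff2 points of every line lie below 0.4.

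In WT cells all 3 genes shifted away from the Xist-bearing X by 24 h, Fmr1 least and Aff2 most, and their paths at 3 h differed. Fmr1 had ratios of 0.506 and 0.465 at 0 h, 0.470 and 0.465 at 3 h, and 0.347 and 0.345 at 24 h. Both 24 h libraries lay below the 4 earlier ones, and those at 3 h lay within the range of 0 h. Fmr1 fell by 0.139 ± 0.0133 at 24 h (limma, adjusted p = 2.53e-06). The change at 3 h was -0.0176 ± 0.0133 (adjusted p = 0.399). Most of the fall came after 3 h, since 24 h against 3 h gave -0.122 ± 0.0133 (adjusted p = 7.96e-06).

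Fmr1nb had ratios of 0.523 and 0.539 at 0 h, 0.467 and 0.485 at 3 h, and 0.294 and 0.310 at 24 h. The 3 times did not overlap, and each step went down. Fmr1nb fell by 0.0553 ± 0.0118 at 3 h (adjusted p = 0.00638) and by 0.229 ± 0.0118 at 24 h (adjusted p = 2.34e-08). Without the WT 3 h replicate 1 the 3 h change was -0.0467 (adjusted p = 0.0523), and with only the WT 0 h and 3 h libraries in the fit its adjusted p was 0.138.

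Aff2 moved the opposite way first. It had ratios of 0.441 and 0.508 at 0 h, 0.630 and 0.581 at 3 h, and 0.199 and 0.241 at 24 h. The 3 h libraries were the highest Aff2 values of the series and the 24 h ones the lowest of any ES cell library. Aff2 rose by 0.131 ± 0.0266 at 3 h (adjusted p = 0.00525), to 170% of the 0 h ratio of 129S to Cast RNA, and fell by 0.255 ± 0.0266 at 24 h against 0 h (adjusted p = 5.04e-06). From 3 h to 24 h the change was -0.386 ± 0.0266 (adjusted p = 2.32e-07), the sixth largest fall of 270 genes. With only the WT 0 h and 3 h libraries in the fit, the 3 h difference had the same size and an adjusted p of 0.124.

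Among all genes of the table, 88.9% fell at 24 h in WT, 265 of 270 had a change below 0, and the median change was -0.197. A fall as such therefore does not set the 3 genes apart. Counted from the largest fall, Aff2 stood at place 75 of 270, Fmr1nb at 97 and Fmr1 at 201. At 3 h 22.2% of genes were called, 17% as lower and 5.19% as higher, and the median was -0.0205. There Fmr1nb stood at place 80, Fmr1 at 140 and Aff2 at 262. For 24 h against 3 h 85.9% were called, 85.6% as lower and 0.37% as higher.

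In SpenKO cells none of the 3 genes passed the test at 24 h, and Aff2 came nearest. Fmr1 had ratios of 0.491 and 0.510 at 0 h, 0.514 at 3 h, and 0.494 and 0.498 at 24 h. Fmr1nb had 0.544 and 0.549 at 0 h, 0.541 at 3 h, and 0.555 and 0.531 at 24 h. For both genes the 24 h libraries lay within or around the 0 h range, with changes of -0.00453 ± 0.0133 for Fmr1 and -0.00409 ± 0.0118 for Fmr1nb (limma, adjusted p = 0.989 each). Aff2 had 0.509 and 0.476 at 0 h, 0.517 at 3 h, and 0.393 and 0.350 at 24 h, and here the 24 h libraries lay below the other 3. Its difference at 24 h was -0.121 ± 0.0266, which missed the threshold after adjustment (adjusted p = 0.0834, unadjusted p = 0.000927) and was the sixth lowest of 270 genes. In this comparison 0.741% of genes were called, and the median change was -0.00937.

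The shift in SpenKO was smaller than the one in WT for each gene by a test of the difference itself. The difference in the 24 h response, SpenKO minus WT, was 0.225 ± 0.0166 for Fmr1nb (adjusted p = 1.02e-06), 0.135 ± 0.0187 for Fmr1 (adjusted p = 8.63e-05) and 0.134 ± 0.0377 for Aff2 (adjusted p = 0.00757). Such a difference was called for 76.7% of all genes. Set side by side at 24 h, the ratios in SpenKO exceeded those in WT by 0.241 for Fmr1nb, 0.150 for Fmr1 and 0.151 for Aff2 (all called, as were 88.1% of genes).

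At 3 h the lines were set side by side in a comparison added after the data were seen. The SpenKO 3 h library had an Aff2 ratio of 0.517, against 0.509 and 0.476 at 0 h, whereas both WT 3 h libraries stood above both WT 0 h libraries. The difference in 3 h response, SpenKO minus WT, was -0.106 ± 0.0421 for Aff2 (limma, adjusted p = 0.198), 0.0496 for Fmr1nb (adjusted p = 0.176) and 0.0307 for Fmr1 (adjusted p = 0.457), so none of the 3 passed, and 2.59% of genes were called. This fit takes the spread of the other groups for the lone SpenKO library.

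All 3 genes fell in SPOCmut cells at 24 h, Aff2 most. Fmr1 had ratios of 0.463, 0.470 and 0.478 at 24 h, against 0.502, 0.508 and 0.514 at 0 h, in clones C10, C2 and G1. Fmr1nb had 0.484, 0.479 and 0.490 at 24 h, against 0.550, 0.561 and 0.560 at 0 h, and Aff2 had 0.364, 0.344 and 0.377 at 24 h, against 0.561, 0.577 and 0.544 at 0 h. For each gene every 24 h library lay below every 0 h library, and each clone went down. Fmr1 fell by 0.0377 ± 0.0108 (adjusted p = 0.0136), Fmr1nb fell by 0.0726 ± 0.00961 (adjusted p = 0.000105) and Aff2 fell by 0.199 ± 0.0218 (adjusted p = 2.53e-05). In this line 49.6% of genes fell, 251 of 270 had a change below 0, and the median change was -0.0658. Aff2 stood at place 20 from the largest fall, Fmr1nb at 124 and Fmr1 at 182.

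Against WT, the 24 h response of SPOCmut cells was smaller for Fmr1nb by 0.157 ± 0.0152 (adjusted p = 1.74e-05) and for Fmr1 by 0.102 ± 0.0171 (adjusted p = 0.000507), a call shared by 58.5% of genes. For Aff2 the difference was 0.0563 ± 0.0344 (adjusted p = 0.183), with a 95% interval from -0.0198 to 0.132, so a difference in either direction is possible at this precision. With 1 library left out at a time it ranged from 0.0229, without the WT 0 h replicate 2, to 0.0897, without the WT 0 h replicate 1. Of these, the value without replicate 1 was the only one that passed (adjusted p = 0.04999). At 24 h itself all 3 genes were higher in SPOCmut than in WT, by 0.182 for Fmr1nb, 0.125 for Fmr1 and 0.142 for Aff2, as were most genes (79.3% called, with 78.9% higher and 0.37% lower in SPOCmut). Against SpenKO, the SPOCmut response was larger for Fmr1nb, with a difference of -0.0686 ± 0.0152 (adjusted p = 0.00780, 23% of genes called). It was -0.0332 for Fmr1 (adjusted p = 0.183, 95% interval -0.0710 to 0.00469) and -0.0778 for Aff2 (adjusted p = 0.132, 95% interval -0.154 to -0.00167).

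**Figure D2:**
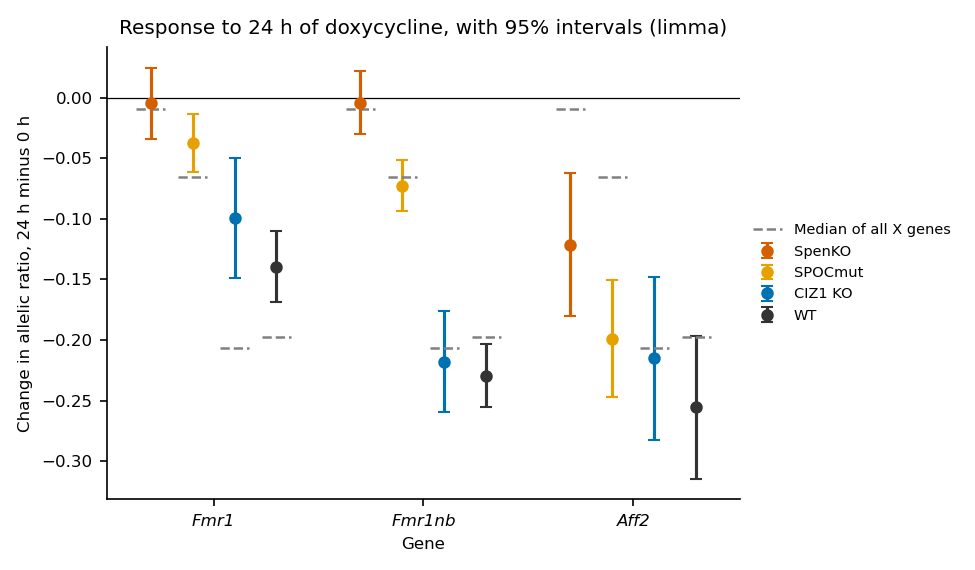
Change in allelic ratio after 24 h of doxycycline (24 h minus 0 h, vertical axis) for each gene and line, with 95% intervals from limma. Dashed marks are the median change of all X genes of the same comparison. Fmr1 and Fmr1nb lie next to 0 in SpenKO. Aff2 lies below the median mark in SpenKO, SPOCmut and WT, and about level with it in CIZ1 KO (-0.215 against -0.207).

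All 3 genes also fell in CIZ1 KO cells at 24 h. Fmr1 had ratios of 0.353 and 0.378 at 24 h, against 0.459 and 0.472 at 0 h. Fmr1nb had 0.317 and 0.341 at 24 h, against 0.552 and 0.542 at 0 h, and Aff2 had 0.300 and 0.316 at 24 h, against 0.523 in both libraries at 0 h. Fmr1 fell by 0.0996 ± 0.0201 (adjusted p = 0.00420), Fmr1nb by 0.218 ± 0.0170 (adjusted p = 0.000131) and Aff2 by 0.215 ± 0.0273 (adjusted p = 0.000672). In this line 85% of 254 genes fell and the median change was -0.207. Counted from the largest fall, Fmr1nb stood at place 116 of 254, Aff2 at 120 and Fmr1 at 218.

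The difference in response, CIZ1 KO minus WT, was 0.0398 for Fmr1 (95% interval -0.0301 to 0.110), 0.0115 for Fmr1nb (-0.0477 to 0.0707) and 0.0401 for Aff2 (-0.0552 to 0.135), with adjusted p-values of 0.853, 0.926 and 0.915. limma called 0% of genes here (11 of 254 at an unadjusted p under 0.05), and these intervals do not exclude sizeable differences. At 24 h Aff2 was 0.300 and 0.316 in CIZ1 KO, against 0.199 and 0.241 in WT. The difference of 0.0886 ± 0.0273 did not pass the adjustment (adjusted p = 0.418, 0% called, 25 genes at an unadjusted p under 0.05).

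Expressed as the ratio of 129S to Cast RNA, the 24 h level of Fmr1 was 98.2% of the 0 h level in SpenKO, 86.0% in SPOCmut, 66.2% in CIZ1 KO and 56.1% in WT. For Fmr1nb these values were 98.4%, 74.7%, 40.6% and 38.2% in the same order of lines. For Aff2 they were 60.9%, 44.4%, 40.6% and 31.1%. Aff2 was the lowest of the 3 genes in SpenKO, SPOCmut and WT, and level with Fmr1nb in CIZ1 KO.

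**Figure D3:**
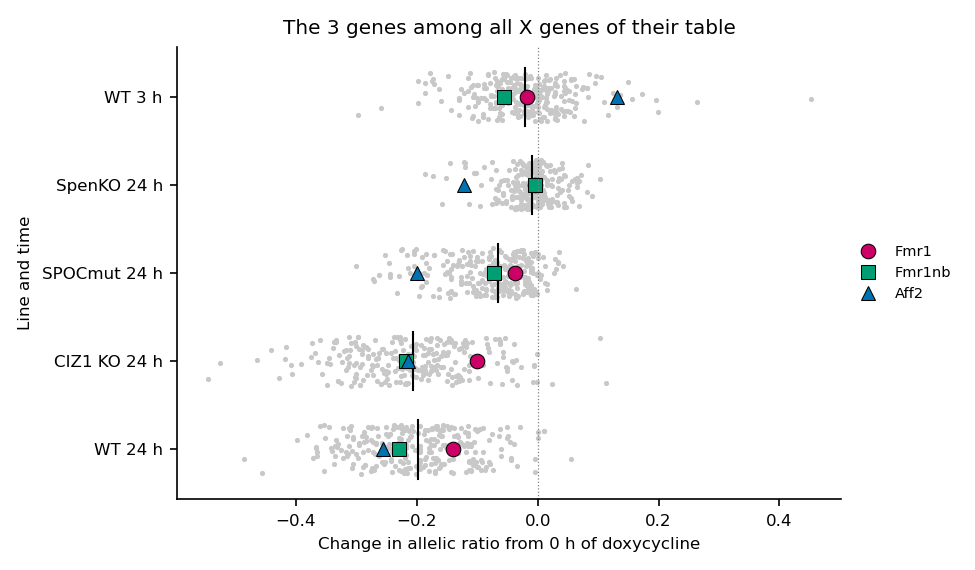
Change in allelic ratio from 0 h of doxycycline (horizontal axis) for every X gene of a table (grey points) and the 3 genes (symbols), 1 row a line and time. Black bars are medians over all genes. Aff2 lies far to the right at 3 h in WT and far to the left in SpenKO and SPOCmut, and Fmr1 lies to the right of the median at 24 h in every line.

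NPC had the lowest ratios of the series, with 1 library a group and so no test. Fmr1 was at 0.187 in CIZ1 KO NPC and 0.116 in WT NPC. Fmr1nb was at 0.0593 in CIZ1 KO NPC and 0.129 in WT NPC, and Aff2 was at 0.0215 in CIZ1 KO NPC and 0.0163 in WT NPC. Fmr1 and Fmr1nb thus differed between the NPC libraries in opposite directions, by 0.0712 and -0.0693 (CIZ1 KO minus WT), where the median over all genes was 0.0105. Against the library median, Fmr1 stood 0.104 above in CIZ1 KO NPC and 0.0613 above in WT NPC. Fmr1nb stood at -0.0237 from the median in CIZ1 KO NPC and at 0.0740 in WT NPC, so it lay on opposite sides. Aff2 stood 0.0615 below in CIZ1 KO NPC and 0.0383 below in WT NPC, so that nearly all of its allele-assigned reads came from the Cast X.

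Ordered by mean ratio over the 12 groups, Fmr1 ran from SpenKO at 3 h down to WT NPC, and its first 8 groups overlapped or touched their neighbours in range. CIZ1 KO at 24 h, WT at 24 h, CIZ1 KO NPC and WT NPC followed below them without overlap. Fmr1nb split at SPOCmut at 24 h and WT at 3 h, which overlapped each other and lay below the 0 h groups and SpenKO. Below them came CIZ1 KO at 24 h and WT at 24 h, without overlap, and the NPC. Aff2 was led by WT at 3 h, and SpenKO and SPOCmut at 24 h overlapped each other between the 0 h groups and CIZ1 KO at 24 h.

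Within each library Aff2 shifted further than Fmr1 in all 4 lines. By group means, most genes fell further than Fmr1 as well. Counted from the largest fall, Fmr1 stood at place 154 of 270 in SpenKO and 182 of 270 in SPOCmut. It stood at place 218 of 254 in CIZ1 KO and 201 of 270 in WT. Aff2 minus Fmr1 averaged -0.125 at 24 h against -0.00819 at 0 h in SpenKO, and -0.109 at 24 h against 0.0526 at 0 h in SPOCmut. It averaged -0.0574 at 24 h against 0.0581 at 0 h in CIZ1 KO, and -0.126 at 24 h against -0.0105 at 0 h in WT. The 24 h and 0 h libraries did not overlap in any line, but for how many other pairs of genes this holds was not counted. Exact two-sided permutation tests gave p = 0.1 in SPOCmut and p = 0.333 in the other lines, the smallest these numbers of libraries allow, so none could pass 0.05. Fmr1nb minus Fmr1 changed by 0.000441 in SpenKO, -0.0349 in SPOCmut, -0.118 in CIZ1 KO and -0.0898 in WT (exact permutation p = 1 in SpenKO and again the smallest possible elsewhere).

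The 6 other genes of the Spen table within 2 Mb of a member start were Gm10474, Ids, 1110012L19Rik, BC023829, Mamld1 and Mtm1, and all 6 fell in WT at 24 h, as did 88.9% of all genes. Gm10474, head to head with Fmr1, had ratios of 0.133 and 0.265 at 24 h against 0.447 and 0.521 at 0 h and fell by 0.285 ± 0.0784 (adjusted p = 0.00547). In SpenKO its change was -0.0750 (adjusted p = 0.893) and in SPOCmut -0.0148 (adjusted p = 0.863), with a far wider spread than that of Fmr1. Ids, which encodes the lysosomal enzyme iduronate 2-sulfatase, fell by 0.180 ± 0.0243 and Mtm1, the myotubularin phosphatase gene, by 0.218 ± 0.0106. At 3 h in WT Mamld1 was the only neighbour called as higher, as Aff2 was (5.19% of all genes). Mamld1 had ratios of 0.699 and 0.726 at 3 h against 0.224 and 0.298 at 0 h (difference 0.452 ± 0.0633, adjusted p = 0.000587). In SpenKO at 24 h none of the 6 neighbours passed the test in limma (0.741% of all genes called).

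**Figure D4:**
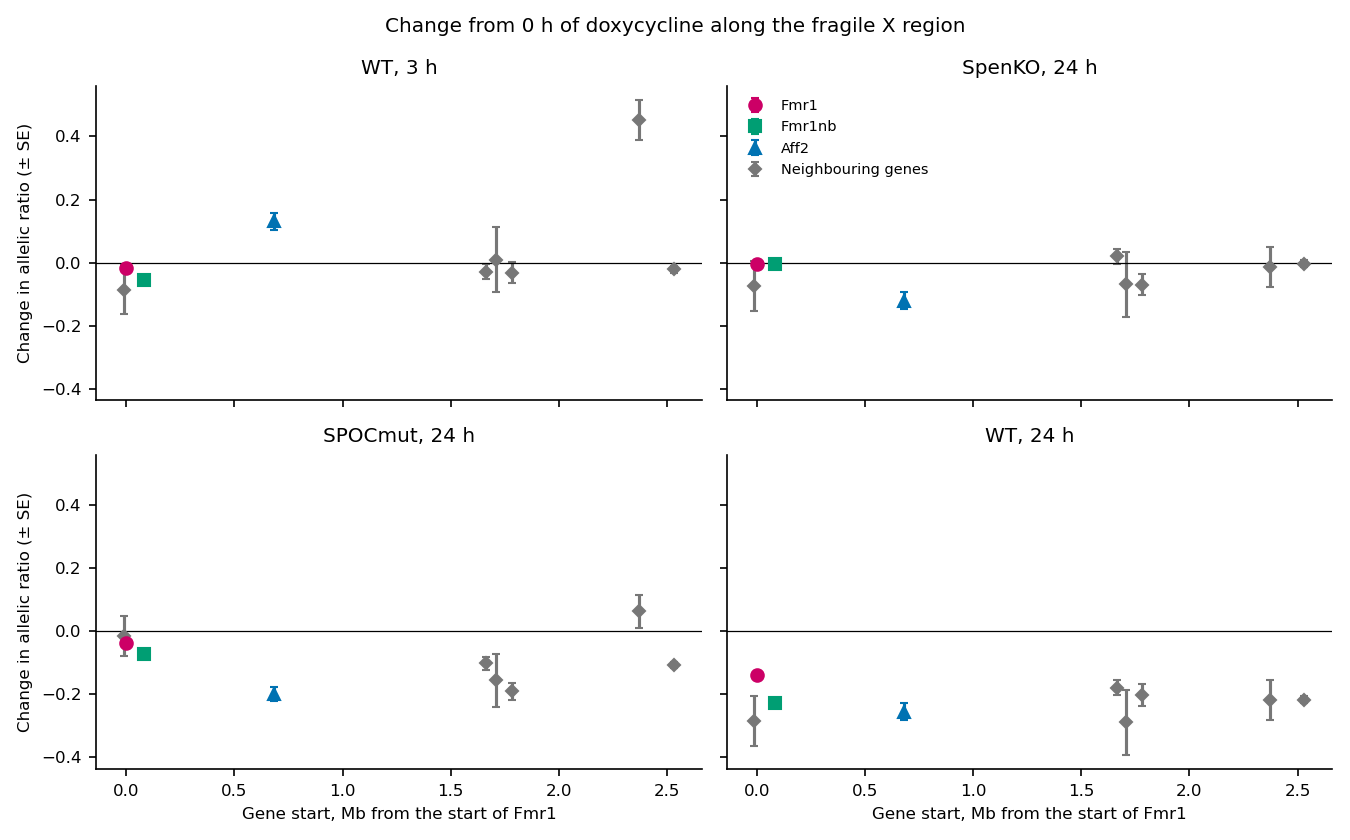
Change in allelic ratio (± SE from limma, vertical axis) against gene start in Mb from the start of Fmr1, for the 3 genes and their neighbours in WT at 3 h, SpenKO at 24 h, SPOCmut at 24 h and WT at 24 h, each minus 0 h. Aff2 and Mamld1 lie above 0 at 3 h by more than the SE, and Aff2 lies lowest in SpenKO.

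For each member, some gene elsewhere on the X lay nearer in its ratios than the other members did. The nearest genes were picked from all other genes of the Spen table, so this was likely from the choice alone. Over the 17 libraries of the Spen table, which share lines and times, the smallest root mean square difference from Fmr1 was that of Ddx3x (0.0158, Pearson r = 0.952), an RNA helicase gene, and Eda2r (0.0221) was also among the nearest. Nearest to Fmr1nb were Tab3 (0.0211), Gripap1 (0.0236) and Bcap31 (0.0246). Aff2 had no neighbour as near, with Gabre (0.0526, r = 0.905), which encodes a GABA receptor subunit, Flna (0.0622), the filamin A gene, and Msn (0.0637), the moesin gene. The difference was 0.0406 between Fmr1 and Fmr1nb, 0.0960 between Fmr1 and Aff2, and 0.0999 between Fmr1nb and Aff2. Gabre also rose at 3 h in WT, by 0.172 ± 0.0266 (adjusted p = 0.00115), and fell in SpenKO at 24 h, by 0.152 ± 0.0266 (adjusted p = 0.0212), as 1 of the 2 genes called there. Gabre was picked for its likeness to Aff2 over these same libraries, so the shared shifts are not independent of that choice.

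Markers of feeder fibroblasts had median changes from 0 h of the same sign as those of Aff2. At 24 h the median over all genes had that sign too in every line. It was -0.00937 in SpenKO, -0.0658 in SPOCmut, -0.207 in CIZ1 KO and -0.197 in WT, so the shared sign at 24 h does not set the markers apart. Of 10 such markers 5 are in the Spen table (Timp1, Srpx, Msn, Fhl1 and Flna). At 3 h in WT 1 of 5 rose (5.19% of all genes), Flna by 0.0533, and their median change was 0.0391 against -0.0205 over all genes. Fhl1 alone had a negative change there (-0.00094). Flna and Msn had also been picked as near to Aff2 from these same libraries. In SpenKO at 24 h 0 of 5 passed the test in limma (0.741% of all genes), and their median was -0.0611 against -0.00937. The files give no level for these genes or for Aff2, and the part of feeder RNA in the Aff2 ratios was not tested.

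Other X-linked genes of human intellectual disability gave a comparison by function. Of 79 listed genes 45 are in the Spen table, and 43 of them fell and 0 rose in WT at 24 h, where 88.9% of all genes fell. The median change was -0.194 in the list and -0.197 over all genes. L1cam, a neural adhesion molecule gene, fell by 0.372 ± 0.0816 and Cul4b, a ubiquitin ligase scaffold gene, by 0.333 ± 0.0401, and the smallest change was that of Taf1, a TFIID subunit gene, at -0.0737 ± 0.0169. At 3 h in WT 7 were lower and 1 higher (Shroom4 rose by 0.0822), where 17% of all genes were lower and 5.19% higher. At 24 h 0 of 45 were called in SpenKO (0.741% of all genes), 24 of 45 fell in SPOCmut (49.6% of all genes) and 43 of 46 fell in CIZ1 KO (85% of all genes). Of 29 genes in a broad list of RNA-binding and mRNA-handling proteins, 18 are in the table and 14 fell in WT at 24 h (88.9% of all genes). Their median change was -0.117 against -0.197 over all genes, and the largest changes were -0.274 in Rbmx and -0.249 in Rbmx2, both RNA-binding protein genes, and -0.220 in Nono, a paraspeckle protein gene. Nudt10 had the smallest, at -0.00468 ± 0.0857 (limma, adjusted p = 0.965), and Nudt11 changed by -0.106 (adjusted p = 0.116). These Nudix hydrolase genes are not of the class of FMRP, and both count among the listed genes that were not called. At 24 h 0 of 18 were called in SpenKO, 3 of 18 fell in SPOCmut and 15 of 19 fell in CIZ1 KO, where 0.741%, 49.6% and 85% of all genes were called.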

How the data were processed

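Allelic ratios of chromatin-associated RNA were used from 2 tables of X genes. Each deposited value is the authors' fraction, from 0 to 1, for 1 gene in 1 library. Per the submitters' processing notes the build was mm10 and the tools included featureCounts, STAR 2.4.2a, edgeR, Bowtie2 2.3.2, bedtools and SAMtools, with no roles given. No source used here states the numerator allele, the filters or how strands were counted, and with fractions alone the depth is unknown, so no interval for counting error is given. Both tables share 248 genes and 4 libraries with identical values, and 0 values are missing. A chromosome 15 table and 4 Xist transgene samples were not analysed here.

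For each table limma 3.58.1 in R 4.3.3 was fitted once to the raw ratios of all libraries, with 1 mean a group and Benjamini-Hochberg adjustment over all its genes, and called at an adjusted p under 0.05. For WT, values come from the Spen table unless set against CIZ1 KO. Differences in response between lines were contrasts of contrasts. Groups of 1 library got no test alone. The limma fit was tested on simulated ratios with known shifts, for the WT 24 h change and the CIZ1 KO minus WT response. Other steps had no such test. The 3 genes, the lists and the motifs were chosen with earlier results of these data known. The genes named beside the members are those within 2 Mb, the 3 nearest by root mean square difference for each, and of each list the 3 with the largest and the 1 with the smallest change in WT at 24 h. Some genes that this rule names are not reported here. Shroom4, Flna and Fhl1 at 3 h were named after their values were seen. Same-numbered SPOCmut libraries are the same clone, per the labels, and their deviations correlated at -0.0170, -0.113 and 0.148. The alternatives were a logit and an arcsine scale, a fit of only the libraries compared, a replicate block, a variance trend, Benjamini-Yekutieli adjustment, genes with a pooled SD up to 0.1, genes of both tables, and each library left out.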

Additional observations from a re-analysis of the deposited data

Results flagged for a closer look

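The 24 h response differed between lines by a test of the difference itself for these results. For SpenKO minus WT the difference in response was 0.135 for Fmr1, 0.225 for Fmr1nb and 0.134 for Aff2 (limma, adjusted p = 8.63e-05, 1.02e-06 and 0.00757). For SPOCmut minus WT it was 0.102 for Fmr1 and 0.157 for Fmr1nb (adjusted p = 0.000507 and 1.74e-05). For SPOCmut minus SpenKO it was -0.0686 for Fmr1nb (adjusted p = 0.00780). A positive value means that the ratio fell less than in WT, and the negative value means that it fell more in SPOCmut than in SpenKO. No group had the 4 libraries needed to look for a library far from the others.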

How the results depend on the processing

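For the 3 genes, 405 of 408 values under settings other than a left-out library kept their direction and their side of the threshold, as did 273 of 282 with a library left out. With only the libraries compared in the fit, which leaves fewer libraries to estimate the spread, the WT 3 h changes of Fmr1nb (-0.0553, adjusted p = 0.138) and Aff2 (0.131, adjusted p = 0.124) no longer passed, and called genes numbered 2 in WT at 3 h, 0 in SpenKO at 24 h and 0 for the 3 h response of SpenKO minus WT, against 60, 2 and 7. Under Benjamini-Yekutieli adjustment the SPOCmut fall of Fmr1 (-0.0377, adjusted p = 0.0840) no longer passed, and the counts were 38, 0 and 2, with 34 against 62 for SPOCmut minus SpenKO. The logit scale gave 4 genes for the 3 h response, and genes of low spread gave 1 against 0 for CIZ1 KO minus WT at 24 h. The causes were not tested.

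The replicate block moved the genes called from 2 to 0 in SpenKO at 24 h and from 7 to 2 for the 3 h response, and changed no call of the 3 genes. Only the SPOCmut numbers pair samples. Elsewhere same-numbered libraries share only a number, and their deviations correlated at 0.101 (WT 0 and 24 h), -0.0883 (WT 0 and 3 h), 0.161 (WT 3 and 24 h), 0.112 (SpenKO) and -0.107 (CIZ1 KO).

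With each library left out, the WT 3 h change ranged from -0.0383 to 0.00304 for Fmr1 (reversed without WT 0 h replicate 1) and from -0.0639 to -0.0467 for Fmr1nb. The SpenKO 24 h change ranged from -0.0142 to 0.00515 for Fmr1, from -0.0159 to 0.00777 for Fmr1nb and from -0.143 to -0.0996 for Aff2. SPOCmut minus WT response of Aff2 ranged from 0.0229 to 0.0897. SpenKO minus WT at 0 h ranged from -0.00556 to 0.0358 for Fmr1 and from -0.0160 to 0.0508 for Aff2. CIZ1 KO minus WT ranged from -0.000169 to 0.0231 for the Fmr1nb response and from -0.0408 to 0.000583 for Fmr1 at 0 h. Genes called ranged from 0 to 3 in SpenKO at 24 h, 41 to 58 for SPOCmut minus SpenKO, 2 to 7 for the 3 h response, and for CIZ1 KO minus WT 0 to 2 (response) and 0 to 4 (0 h, 4 without CIZ1 KO 0 h replicate 1). Within-library differences kept their signs on the logit scale. Ratios of unknown depth limit what a small change can show.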

Other observations

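Relative to the median of its own library, Fmr1 stood above at 24 h in all 3 SPOCmut clones (by 0.0206, 0.0214 and 0.0317), both CIZ1 KO libraries (by 0.0472 and 0.0708) and both WT libraries (by 0.0554 and 0.0402), whereas the distances in both SpenKO libraries were -0.00908 and -0.00767. At 0 h it stood below the median or level with it. The distance ran from -0.0521 in CIZ1 KO replicate 1 to -9.91e-05 in SPOCmut clone G1, and was -0.000916 in SpenKO replicate 2.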
